A study of Mus musculus with 2 samples.

Results

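Predicted piRNAs that lie in ERVL-MaLR repeats were described here across 2 small RNA libraries of mouse testicular extracellular vesicles (EVs). They were the entries that the deposited tables name as predicted piRNAs and place, by chromosome, strand, start and end, in a repeat interval of exactly the class LTR/ERVL-MaLR. There were 1647 such entries among 6588 predicted piRNAs and 27065 listed entries of all kinds. Entries with the same interval were joined into a locus, which gave 342 ERVL-MaLR loci of 1648 loci of all repeat classes. Both libraries came from testes of mice that the labels give as adult and of the strain C57/BL6 (C57BL/6 males in the study's methods), and the EVs had been treated with proteinase K and RNase A. There was 1 condition, with no untreated and no control library, so the series holds no comparison of groups. No source used here ties the libraries to separate animals or preparations, and their spread may thus be technical.

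piRNAs are small RNAs bound by PIWI proteins, and in the germ line they guide the silencing of transposons. In the adult testis most of them are pachytene piRNAs, which are cut from long single-stranded precursors of dedicated genomic clusters that the transcription factor A-MYB switches on. MaLRs (mammalian apparent LTR retrotransposons) are short elements without genes of their own that depended on ERVL-type endogenous retroviruses to move, and old copies of them are scattered through mammalian genomes. A long terminal repeat (LTR) typically begins with TG and ends with CA, and can carry the polyadenylation signal AATAAA. A piRNA placed in such a repeat can come from a precursor that runs through the repeat, so the class of the interval does not name the target of the piRNA.

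The tag sequences themselves were not used here. The bases of a locus were read from GENCODE M21 transcripts (GRCm38) for the 28 ERVL-MaLR loci that lie whole within 1 exon. The first 3 sequences are shown because they let copies of the repeat be compared. Each is written 5′ to 3′ on the deposited strand, which was plus in all 3. Capitals in the Gm35608 locus (chr10:76686048-76686347) mark the 203 of 300 bases that are the same in the aligned locus in 4930453N24Rik. Capitals in the Gm21781 locus (chr10:4395761-4396010) and in the Gm40617 locus (chr10:25304744-25304993) mark the 200 of 250 bases that both copies share. Gm40617 and 4930453N24Rik fall outside the rule for named genes and were chosen after their values were seen.
Gm35608 locus, aligned part: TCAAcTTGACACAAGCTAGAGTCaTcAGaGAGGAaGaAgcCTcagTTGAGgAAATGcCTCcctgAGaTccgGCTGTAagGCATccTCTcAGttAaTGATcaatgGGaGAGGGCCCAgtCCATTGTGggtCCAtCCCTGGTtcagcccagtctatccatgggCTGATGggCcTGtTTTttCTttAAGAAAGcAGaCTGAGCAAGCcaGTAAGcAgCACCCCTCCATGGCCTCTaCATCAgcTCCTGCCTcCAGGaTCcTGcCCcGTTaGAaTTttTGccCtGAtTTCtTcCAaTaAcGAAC
Gm21781 locus, aligned part: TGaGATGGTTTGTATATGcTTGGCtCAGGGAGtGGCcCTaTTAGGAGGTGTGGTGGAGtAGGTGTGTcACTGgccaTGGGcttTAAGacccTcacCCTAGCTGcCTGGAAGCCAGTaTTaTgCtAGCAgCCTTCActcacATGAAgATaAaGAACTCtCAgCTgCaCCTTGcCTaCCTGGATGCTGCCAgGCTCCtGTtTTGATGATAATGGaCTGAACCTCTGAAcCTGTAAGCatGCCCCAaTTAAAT
Gm40617 locus, aligned part: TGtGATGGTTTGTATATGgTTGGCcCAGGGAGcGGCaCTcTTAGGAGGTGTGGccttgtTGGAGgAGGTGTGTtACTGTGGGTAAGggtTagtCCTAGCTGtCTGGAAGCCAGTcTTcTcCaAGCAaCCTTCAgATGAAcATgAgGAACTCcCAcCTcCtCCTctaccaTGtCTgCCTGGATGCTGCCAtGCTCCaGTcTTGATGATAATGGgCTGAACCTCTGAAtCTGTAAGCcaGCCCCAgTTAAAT

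The next 3 sequences are loci that lie in clusters of predicted piRNAs, and capitals mark AATAAA on the deposited strand. The first is bases chr17:27357624-27357923 of the locus that ranks 4 by level, on the minus strand within an exon of the lincRNA Gm49794, a gene of the plus strand. It holds no AATAAA in the stretch shown, so it is in lower case throughout. The second is the locus chr17:27363636-27363925 in Gm49794, on the plus strand. The third is the locus chr5:113324914-113325071 in Gm43353, on the plus strand.
Gm49794 locus on the minus strand: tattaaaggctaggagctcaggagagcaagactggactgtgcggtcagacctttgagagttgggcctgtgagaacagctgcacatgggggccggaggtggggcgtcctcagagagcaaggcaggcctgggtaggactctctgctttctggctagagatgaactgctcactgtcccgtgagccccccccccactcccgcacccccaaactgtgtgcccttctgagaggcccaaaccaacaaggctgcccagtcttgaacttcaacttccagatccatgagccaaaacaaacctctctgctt
Gm49794 locus on the plus strand: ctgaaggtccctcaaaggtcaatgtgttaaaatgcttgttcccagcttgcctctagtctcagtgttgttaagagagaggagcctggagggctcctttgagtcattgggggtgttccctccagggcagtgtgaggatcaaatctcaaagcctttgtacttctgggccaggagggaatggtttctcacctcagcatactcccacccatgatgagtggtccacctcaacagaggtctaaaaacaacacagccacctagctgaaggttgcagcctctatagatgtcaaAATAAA
Gm43353 locus: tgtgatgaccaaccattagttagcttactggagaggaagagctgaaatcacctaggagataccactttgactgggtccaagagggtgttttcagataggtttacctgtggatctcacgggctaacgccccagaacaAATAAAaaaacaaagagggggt

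The bases gave a check of the coordinates, since the sources used here name no genome build. Among the 73 LTR loci of all classes within 1 exon, 24 began with TG at the deposited start and 23 ended with CA at the deposited end. At offsets of up to 5 bases to either side the counts were 3 to 15 for TG and 4 to 8 for CA. The peaks at the deposited ends fit GRCm38 coordinates counted from 1 with both ends included, and coordinates are given so. All 15 aligned pairs of ERVL-MaLR loci, which involve 9 of the 28 loci, were in the same orientation when read on the deposited strand, at an identity of 68.3% to 80.3%. Over all predicted piRNA classes it was 29 of 30 pairs. The deposited strand can thus be the orientation of the repeat. Which strand the tags themselves lie on is not stated in the sources used here, so strands below are those of the intervals.

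Predicted piRNAs in ERVL-MaLR repeats held more counts than those in any other repeat class, by a margin that was smaller without chromosome 10. Library 1 had 206241 such counts of 21970654 listed counts, and library 2 had 200330 of 24829208. In counts per 1000000 listed counts (CPM) this was 9387 in library 1 and 8068 in library 2, with a mean of 8728 ± 933 (SD, n = 2). As a share of listed counts it was 0.939% (exact 95% interval 0.935 to 0.943) and 0.807% (0.803 to 0.810). The libraries lie further apart than these intervals, which cover counting error only.

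Among the counts of predicted piRNAs alone, the ERVL-MaLR share was nearly equal in the libraries, at 36.8% (36.7 to 36.9) and 36.3% (36.2 to 36.5). Predicted piRNAs in L1, the main active LINE family of the mouse, took 21.6% and 23.6%. Those in ERVK, the LTR class that includes the young IAP elements, took 18.7% and 17.2%. ERVL-MaLR was the highest of the 3 in each library. It had fewer loci, 342 against 354 for L1 and 489 for ERVK, but the most entries, 1647 against 1450 and 1635. Without chromosome 10 ERVL-MaLR held 29.9% and 29.1%, L1 24.8% and 28.1%, and ERVK 17.7% and 15.7%. The order was a description of 2 libraries and was not tested.

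Single ERVL-MaLR entries were mostly low. No predicted piRNA was listed with fewer than 10 counts in either library, while other entries went down to 1 count, so the lowest tags were cut off. The median ERVL-MaLR entry had 32 counts in each library, the highest 10138 and 6659, and 110 of 1647 entries stood at 10 counts in at least 1 library. At least 100 counts in both libraries were reached by 234 entries and at least 1000 by 27. Many loci were single tags: 190 of 342 loci (55.6%) held 1 predicted piRNA, against 57.9% of L1 loci and 57.9% of ERVK loci.

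A handful of loci carried most of the counts. The 10 loci of highest mean CPM held 62.5% (62.2 to 62.7) of the ERVL-MaLR counts in library 1 and 58.8% (58.6 to 59.0) in library 2. Over the mean of the libraries, 6 loci held at least 50% and 69 held at least 90%, and 13 loci reached 100 CPM. The 10 highest L1 loci held 57.3% of the L1 CPM and the 10 highest ERVK loci 34.1% of the ERVK CPM. Without chromosome 10 the 10 highest of the other loci held 52.4% and 50.4% of the ERVL-MaLR counts, below the 59.4% and 65.7% of L1. The median ERVL-MaLR locus was at 2.70 CPM, close to that of L1 (2.40) and ERVK (2.00). Locus length did not follow level: the Spearman correlation of length and mean CPM over the 342 loci, which share their libraries and depth, was -0.06.

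**Figure D1:**
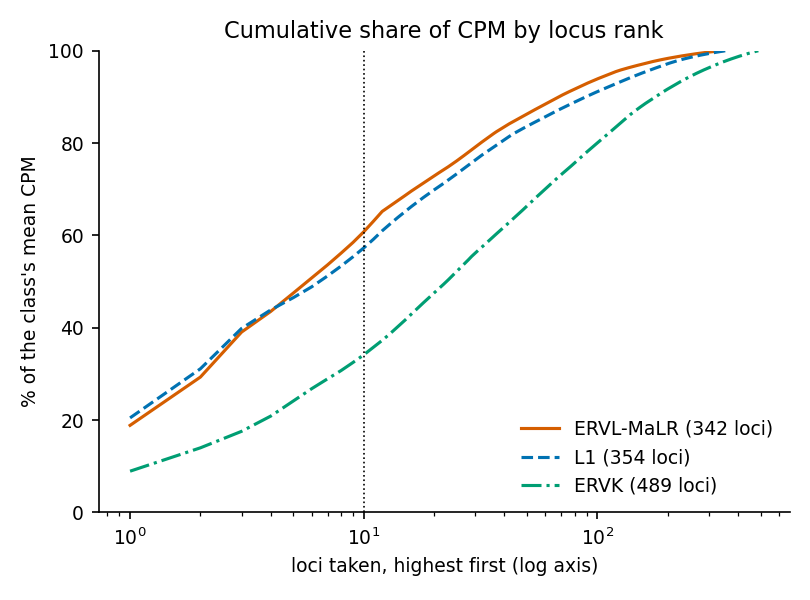
Cumulative share of the mean CPM of each repeat class (vertical axis, %) against the number of loci taken from the highest down (log axis), for ERVL-MaLR, L1 and ERVK. The dotted line marks 10 loci, where ERVL-MaLR and L1 stand at 60.8% and 57.3% and ERVK at 34.1%.

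The highest locus, chr10:42856810-42856927 on the minus strand, was short and lay outside annotated genes. Its 78 predicted piRNAs fell in 118 bases, and together they reached 1813 CPM in library 1 and 1479 CPM in library 2. It alone held 19.3% and 18.3% of the ERVL-MaLR counts. No single entry dominated it, since its top entry took 9.28% and 6.47% of its counts.

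Loci 2 and 3 by rank, also on chromosome 10, were built the other way, from a few very high entries. The locus chr10:67563406-67563717 (minus strand, outside genes) had 9 predicted piRNAs at 1146 CPM and 680 CPM. Its entry novel_pir10629 was the highest of the class, with 10138 and 6659 counts, and novel_pir10630 (8243 and 4656) and novel_pir10628 (5597 and 5112) ranked 3 and 4 by mean CPM. The entry novel_pir10629 took 40.3% and 39.5% of the counts of the locus. The locus chr10:76686031-76686423, in an exon of the lincRNA Gm35608 on the same strand, had 17 predicted piRNAs at 902 CPM and 798 CPM. Its entry novel_pir4156 had 7494 and 6613 counts, and novel_pir4164 had 3430 and 3227.

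The locus in Gm35608 shared sequence with many other transcripts, as its printed bases allow to be checked. At least 1 stretch of 26 bases, about the length of a piRNA, occurred also in transcripts of 68 other genes. Of the 28 loci whose bases could be read, 9 shared such a stretch with another gene, up to 320 genes for the locus in Alkbh8, a tRNA methyltransferase gene named here after its value was seen. Tags of these loci could have come from other copies, and how tags with several matches were assigned is not stated in the sources used here. Only transcripts were searched, so copies outside annotated exons would not be seen. Within that limit, the cluster loci in Gm49794, Gm43353 and Gm21269 shared no such stretch with another gene. Other cluster loci did, at AC140207.2 (chr18:67073839-67074156) with 60 genes and at Gm30132 (chr8:93423259-93423594) with 117, both chosen after their values were seen.

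The other named loci of high level fell on 7 further chromosomes. The locus chr17:27357624-27357964 on the minus strand, opposite the exon of Gm49794, had 66 predicted piRNAs at 430 CPM and 352 CPM. The locus chr5:17118211-17118485 (minus strand, outside genes) had 9 at 470 CPM and 226 CPM. These include novel_pir46329, with 4551 and 2351 counts, and novel_pir46334, with 3082 and 1886 counts. All 9 entries of this locus were lower in library 2, as were all 9 of chr10:67563406-67563717.

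The locus chr12:98395502-98396914 on the plus strand had the most entries, 130 predicted piRNAs over 1413 bases, at 259 CPM and 228 CPM. It is the middle of 3 intervals that follow each other on 1 strand with gaps of at most 20 bases, from chr12:98395139-98397285. The outer intervals were 355 and 371 bases long and held 13 and 12 predicted piRNAs, and the 3 together reached 296 CPM and 268 CPM. Which of them are LTRs and which are internal parts of an element is not named in the files. Of the 342 loci, 13 fell in 6 such runs of neighbouring intervals.

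A pair of loci on chromosome 17 was higher in library 2. The locus chr17:27347991-27348331 (plus strand, 45 predicted piRNAs) had 242 CPM and 333 CPM. The locus chr17:27341444-27341859 (minus strand, 21 predicted piRNAs) had 136 CPM and 264 CPM and lay opposite an exon of Gm10505, a processed transcript gene. Close to each other in both libraries were chr15:74640017-74640332 (minus strand, 40 predicted piRNAs), at 246 CPM and 198 CPM, and chr9:67695320-67695596 (minus strand, 43 predicted piRNAs), at 218 CPM and 187 CPM.

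The last of the 12 highest loci rested on few tags. The locus chr8:66396315-66396534 on the minus strand was 1 entry, novel_pir54950, with 5162 and 4058 counts, or 235 CPM and 163 CPM. It lay in an intron of March1, a gene of the plus strand that encodes a membrane-bound ubiquitin ligase. The locus chr7:69886500-69886824 (minus strand) had 13 predicted piRNAs at 167 CPM and 207 CPM, of which novel_pir51605 (2632 and 3952 counts) made up 71.6% and 77.0%. Another of the 10 highest entries, novel_pir10124, lay in the highest locus, with 3695 and 2376 counts.

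**Figure D2:**
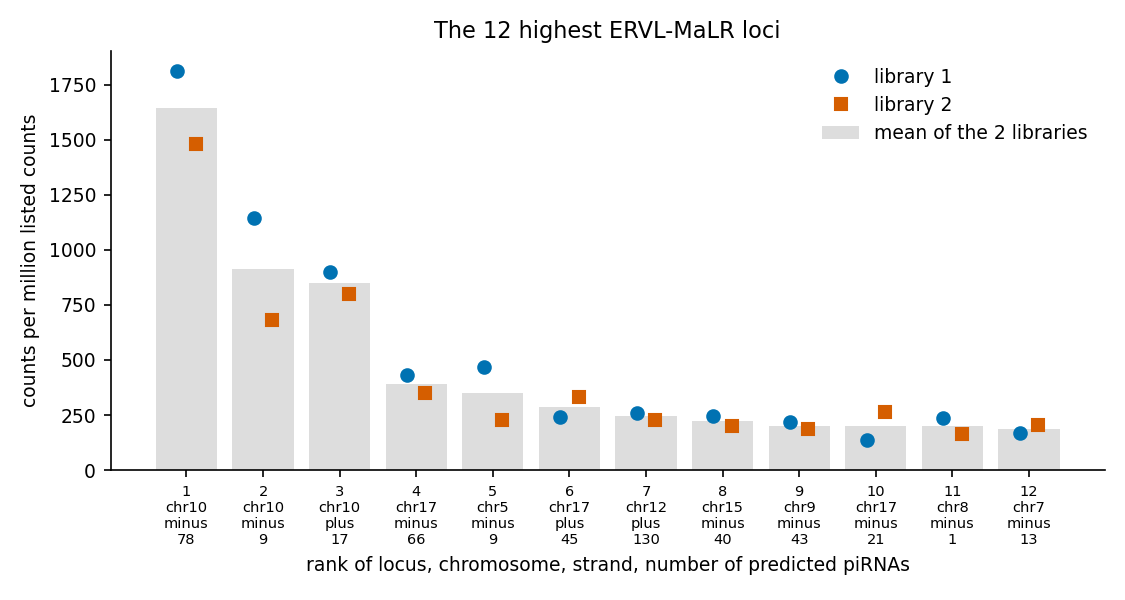
Level of the 12 highest ERVL-MaLR loci in counts per 1000000 listed counts (vertical axis), ordered by mean (horizontal axis, with chromosome, strand and number of predicted piRNAs under each). Grey bars are the mean of the 2 libraries, circles library 1 and squares library 2, and the highest locus stands at 1813 and 1479 CPM. Loci 6, 10 and 12 are higher in library 2.

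Pachytene piRNA precursors are long, so repeats of several classes on 1 precursor lie close together. Loci of every predicted piRNA class were therefore joined into clusters where neighbours were at most 20 kb apart on either strand, with at least 5 loci to a cluster. This gave 32 clusters, of which 29 held ERVL-MaLR loci. They took in 124 of the 342 ERVL-MaLR loci (36.3%) and 1107 of the 1647 entries. Over all predicted piRNA loci it was 466 of 1648 (28.3%). Among L1 loci 30.2% lay in clusters and among ERVK loci 15.3%. Other classes stood on either side of ERVL-MaLR, such as ERV1 at 38.8%, LINE/L2 at 71.4% and ERVL at 19.2%. Clusters held 37.7% (37.4 to 37.9) of the ERVL-MaLR counts in library 1 and 44.0% (43.8 to 44.3) in library 2. Without chromosome 10, whose 3 highest loci lie outside clusters, the mean share was 74.9% instead of 40.8%. With all chromosomes it was 31.0% and 33.7% for L1 and 34.6% and 39.7% for ERVK. Without chromosome 10 the shares of these classes also rose, to 42.4% and 40.3% for L1 and 55.6% and 60.4% for ERVK.

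Loci within clusters were covered by more entries than the others. The median was 4 predicted piRNAs per locus in clusters and 1 outside, and single-entry loci were 37 of 124 (29.8%) against 153 of 218 (70.2%). The median level was 7.32 CPM in clusters and 1.95 CPM outside. Without chromosome 10, single-entry loci were 30 of 109 in clusters (27.5%) and 91 of 122 outside (74.6%). A locus is listed only where an entry reached 10 counts, so a high local level gives both more neighbouring loci and more entries per locus, and the difference was not tested.

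The cluster with the highest ERVL-MaLR level spans chr17:27290676-27365776 and holds the loci that rank 4, 6 and 10. Its 7 ERVL-MaLR loci of 40 loci reached 937 CPM in library 1 and 1091 CPM in library 2, or 49.6% and 55.1% of the cluster. They lay on both strands, 3 on plus and 4 on minus, in or beside Gm10505, Gm49793 and Gm49794. The other classes held the rest, with ERVK at a mean of 369 CPM.

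In 2 clusters ERVL-MaLR loci held nearly all counts. In chr12:98390426-98415521, 5 of 9 loci, all on the plus strand, reached 374 CPM and 324 CPM, or 87.6% and 86.5% of the cluster. In chr15:74632850-74658621, 7 of 10 loci reached 277 CPM and 226 CPM, or 93.7% and 93.3%. Both are short clusters, of 25.1 and 25.8 kb.

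In the remaining named clusters other classes held more than ERVL-MaLR. The cluster chr5:113319890-113361941 had 11 ERVL-MaLR loci of 29, at 383 CPM and 332 CPM. The cluster chr9:67693147-67770312 had 5 of 29, at 330 CPM and 301 CPM, beside L1 loci at a mean of 321 CPM. The cluster chr7:69884581-69940581 had 2 of 9, at 213 CPM and 267 CPM. The second cluster on that chromosome, chr7:73779817-73837671, had 7 of 24, at 143 CPM and 168 CPM, and spans the lincRNA genes Gm10619 on the minus strand and Gm21269 on the plus strand. The cluster chr18:67036778-67085157 had 7 of 26, at 154 CPM and 102 CPM. ERVL-MaLR loci of both strands occurred in 20 of the 29 clusters. In 21 clusters the ERVL-MaLR loci reached at least 10 mean CPM together. Their log2 ratio of library 2 over library 1 had the sign of that of the other classes in 7 of these (Pearson r = -0.39). Whether the loci of a cluster share a precursor was not tested.

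**Figure D3:**
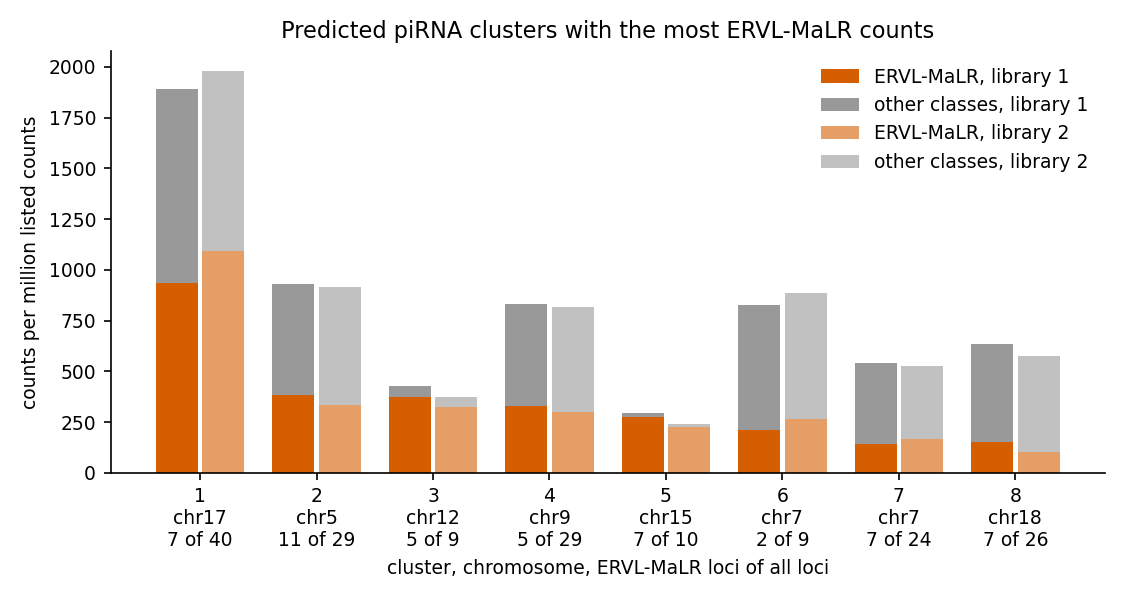
Level of the 8 clusters with the highest ERVL-MaLR mean, in counts per 1000000 listed counts (vertical axis), with the chromosome and the number of ERVL-MaLR loci of all loci under each pair of bars (library 1 dark and left, library 2 light and right). Orange is the ERVL-MaLR part and grey the other repeat classes. The orange part reaches 937 and 1091 CPM in the first cluster, and it is nearly the whole bar in the third and the fifth.

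By strand as deposited, which need not be the strand of the tags, minus loci held a larger share of the counts than of the loci. Of 342 loci 181 (52.9%) were on minus and 161 on plus, and plus loci held 33.4% and 37.3% of the counts. The highest locus is on minus, and without it the mean plus share was 43.5% instead of 35.4%, and without chromosome 10 it was 42.1%. For L1 the plus share was 68.9% and 74.3%, and for ERVK 59.9% and 61.0%.

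Chromosome 10 held far more loci than any other. It had 111 of 342 ERVL-MaLR loci (32.5%) and 49.0% and 44.2% of the counts, against 33 loci on chromosome 15, 24 on chromosome 5 and 9 on chromosome 1. The excess was shared by L1, with 136 of 354 loci (38.4%) on chromosome 10, and by ERVK, with 187 of 489 (38.2%). Of the 111 loci 69 were single entries, and 15 lay in clusters, against 109 of 231 on the other chromosomes. The identifiers of predicted piRNAs are numbered by chromosome, with chromosome 10 first, then 11 to 19 and then 1. The part that this order, or the assignment of tags with several matches, has in the excess was not tested. On the other chromosomes ERVL-MaLR loci reached 4785 CPM and 4500 CPM, L1 loci 3969 CPM and 4346 CPM, and ERVK loci 2841 CPM and 2425 CPM.

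**Figure D4:**
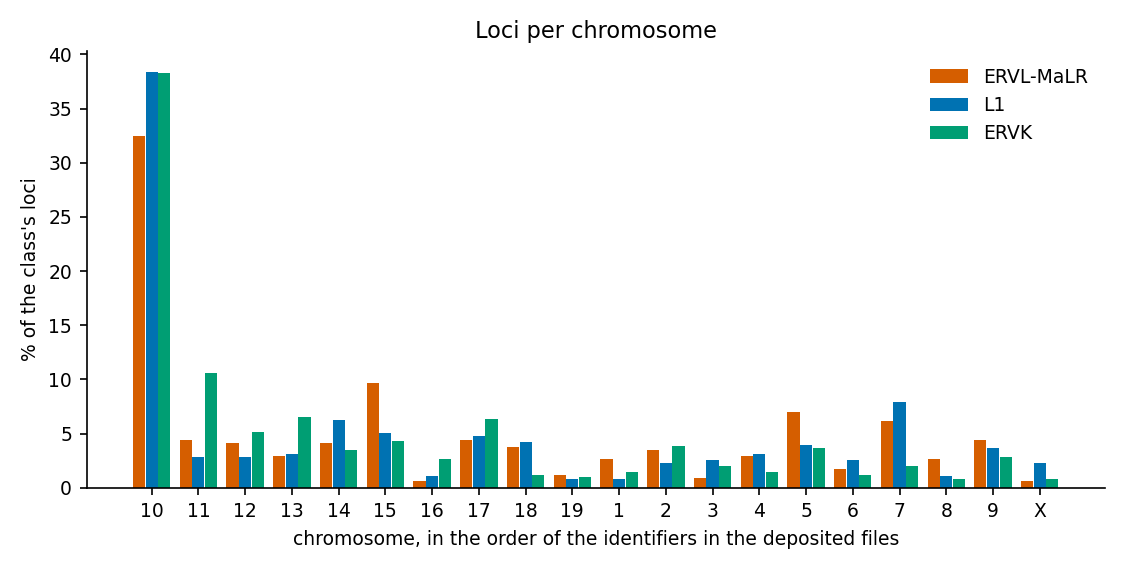
Share of the loci of each repeat class (vertical axis, %) on the 20 chromosomes with ERVL-MaLR loci, in the order in which the deposited identifiers are numbered. Chromosome 10, the first in that order, holds 32.5% of ERVL-MaLR, 38.4% of L1 and 38.2% of ERVK loci.

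Most ERVL-MaLR loci lay outside genes of GENCODE M21, but a smaller share of them than of L1 or ERVK loci. Of 342 loci 192 (56.1%, 50.7 to 61.5) overlapped no gene, and these held 69.7% and 67.1% of the counts. Outside genes lay 67.2% of L1 loci and 69.3% of ERVK loci. Without chromosome 10 it was 130 of 231 ERVL-MaLR loci (56.3%), beside 70.6% of L1 loci and 71.9% of ERVK loci. Another 22 overlapped an exon of a gene on the deposited strand, 18 an exon of a gene on the other strand, 44 an intron on the deposited strand and 66 an intron on the other. Exons on the deposited strand held 12.2% and 13.0% of the ERVL-MaLR counts, of which the Gm35608 locus was the greater part. Without that locus the share was 2.59% and 3.09%, beside 0.777% and 0.972% of L1 counts and 1.94% and 1.92% of ERVK counts. Counting protein-coding genes alone, 258 of 342 loci (75.4%) lay outside genes, and 28 lay in an intron on the deposited strand. The highest of these, in Ostf1 (chr19:18566421-18567253) and named after its value was seen, had 1 entry at 0.91 CPM in library 1 and 12.4 CPM in the other.

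The exons on the deposited strand that held a locus of at least 10 mean CPM were of non-coding genes. After Gm35608 came Gm49794 (chr17:27363636-27363925), at 50.4 CPM and 61.3 CPM, and 1110002J07Rik (chr10:66918302-66918692), at 55.7 CPM and 48.3 CPM, both lincRNAs. The locus chr2:27400951-27402008 overlapped the predicted miRNA gene Gm24049, at 18.3 CPM and 20.9 CPM. The lincRNA Gm36617 (chr15:59287325-59287670) held 19.3 CPM and 16.0 CPM. Gm21781 (chr10:4395761-4396065) held 22.3 CPM and 10.3 CPM. The gene Gm43353, whose transcript type is yet to be shown by experiment, held loci of 17.5 CPM and 18.8 CPM (chr5:113324914-113325071) and of 19.4 CPM and 7.09 CPM (chr5:113325276-113325457). The processed pseudogene Gm48815 (chr10:127635837-127635913) is described with the loci that differed between the libraries.

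Within the 28 loci with bases, G and C made up a median of 46.8% (42.4% to 55.7%). The motif AATAAA occurred on the deposited strand in 6 of them, the printed loci of Gm49794 and Gm43353 on the plus strand included, and on the other strand in 1. Of 32851 RefSeq promoter windows (GRCm38.p6, 300 bases each, of a like length to the median of 320 bases of the loci), 11.3% held AATAAA on the gene's strand, 10.5% on the other strand and 19.6% on either. The windows are another kind of sequence, and their base composition was not set beside that of the loci. A match describes the letters and no more.

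Promoters of some genes that host loci are shown because A-MYB binds MYB-type motifs at many pachytene piRNA genes. The letters searched, on both strands, were CAACTG with its variant TAACTG. Also searched were CAACGG with its variant TAACGG, and overlaps were not merged. Such a motif stood in 5 of 7 RefSeq promoter windows of chosen host genes and in 28.3% of all windows. The genes were 1110002J07Rik, Gm10505 (counted with both its windows), Gm10619, Gm21269, Gm35608 and Gm36617. They were picked by hand, and other named hosts, such as Gm49794, Gm43353 and Gm21781, were not searched. The highest locus in each of Gm10619, Gm21269 and Gm10505 lies on the strand opposite the gene. The shares were not tested. The window of Gm10619 (chr7:73816454-73816753, minus strand) held 3, in capitals in the first sequence. The window of Gm35608 (chr10:76677472-76677771, plus strand) held none. It aligned instead with the Gm35608 locus itself over 166 bases at 75.3% identity in the same orientation, and capitals in the second sequence mark the 125 bases that are the same.
Gm10619 promoter: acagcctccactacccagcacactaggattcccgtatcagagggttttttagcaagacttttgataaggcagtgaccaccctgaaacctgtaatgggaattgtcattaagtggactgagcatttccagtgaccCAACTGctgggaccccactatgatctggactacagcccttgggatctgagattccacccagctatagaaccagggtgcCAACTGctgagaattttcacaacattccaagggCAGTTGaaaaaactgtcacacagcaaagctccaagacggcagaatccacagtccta
Gm35608 promoter: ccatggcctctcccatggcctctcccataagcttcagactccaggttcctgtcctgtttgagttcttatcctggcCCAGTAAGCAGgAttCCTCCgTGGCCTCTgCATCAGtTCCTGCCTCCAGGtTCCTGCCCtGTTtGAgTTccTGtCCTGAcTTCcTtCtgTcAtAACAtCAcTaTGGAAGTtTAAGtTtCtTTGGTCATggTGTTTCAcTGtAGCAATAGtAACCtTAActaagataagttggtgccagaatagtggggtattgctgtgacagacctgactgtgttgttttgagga

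Of 168 predicted miRNAs, 5 lay within ERVL-MaLR loci, all named here after their values were seen. The share for other repeat classes is not given here. The highest, novel_mir62, had 110 and 158 counts and lay on the minus strand within the plus-strand locus chr17:27347991-27348331. In the locus chr5:113325276-113325457, novel_mir1870 lay on the same strand, with 118 and 34 counts. The other 3 had between 14 and 117 counts in a library. All were far below the predicted piRNAs of the highest loci. Against its own locus, chr12:76991777-76992159 (22 and 12 counts), novel_mir827 was higher, with 30 and 24 counts. The others were below the loci they lay in.

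The libraries differed by much more than counting noise at the level of single loci. All 342 loci had a mean count of at least 10, and their counts gave a chi-square of 45.1 per degree of freedom, where counting noise alone gives about 1. The same measure was 43.0 for L1, 20.5 for ERVK and 32.9 for all predicted piRNA loci. It grows with the counts of the loci, so it does not rank the classes by how closely they repeat. The common dispersion that edgeR estimated from the 2 libraries as 1 group corresponds to a coefficient of variation of 41.7%. It was nearly equal for L1 (41.0%), for ERVK (41.6%) and over all predicted piRNA loci (41.4%).

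More than 2-fold apart in CPM were 93 of 342 ERVL-MaLR loci (27.2%), against a background of 25.6% (422 of 1648) over all predicted piRNA loci. Of the 93, 61 were higher in library 1 and 32 in library 2. The background shares were 18.5% and 7.1%. The median log2 ratio of library 2 over library 1 was -0.21, and it was -0.18 for L1, -0.35 for ERVK and -0.26 over all predicted piRNA loci. Over every listed entry whose counts averaged 10 or more it was 0.20, and 33.7% of these 23876 entries were more than 2-fold apart. Without chromosome 10, 64 of 231 ERVL-MaLR loci (27.7%) were more than 2-fold apart and the median log2 ratio was -0.22. Under TMM scaling the medians became 0.01 for all entries and -0.40 for the ERVL-MaLR loci.

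Loci in clusters repeated more closely than the others. In clusters 21 of 124 ERVL-MaLR loci (16.9%) were more than 2-fold apart and the coefficient of variation was 27.7%. Outside them it was 72 of 218 (33.0%) and 47.7%. The median log2 ratio was -0.07 in clusters and -0.30 outside. Without chromosome 10, 18 of 109 loci in clusters (16.5%) and 46 of 122 outside (37.7%) were more than 2-fold apart. Loci outside clusters also had lower counts and fewer entries, whose part in the wider spread was not tested.

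**Figure D5:**
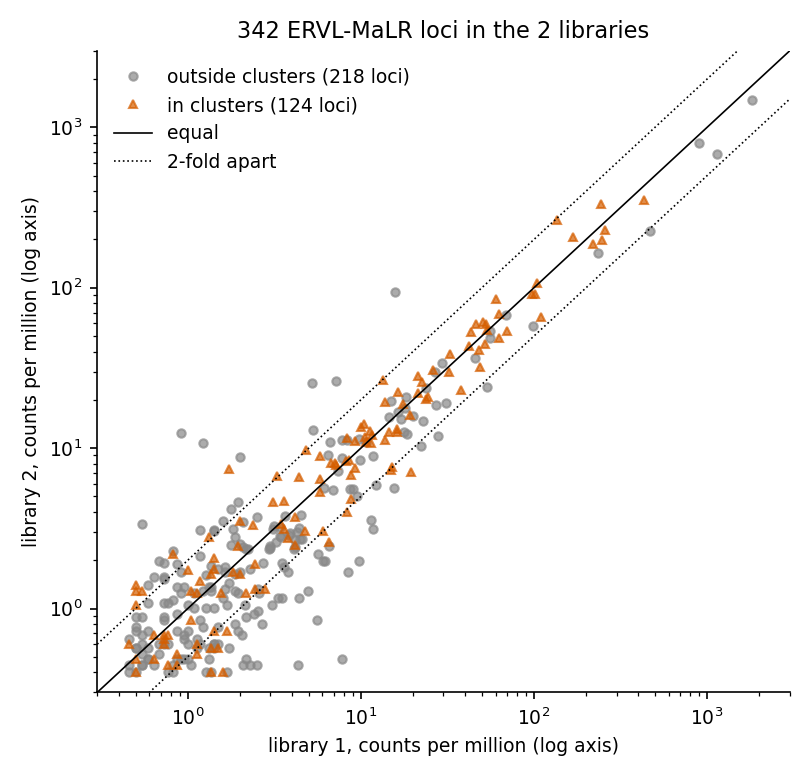
CPM of each of the 342 ERVL-MaLR loci in library 1 (horizontal, log axis) and library 2 (vertical, log axis), with triangles for the 124 loci in clusters and circles for the 218 outside. The solid line marks equal levels and dotted lines 2-fold differences, beyond which lie 21 loci in clusters and 72 outside.

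Among the 95 loci that averaged 200 or more counts, the 3 furthest apart were all higher in library 2. The locus chr15:98203387-98203537 (plus strand, 2 predicted piRNAs, opposite an intron of Gm44579) had 15.7 CPM and 94.5 CPM, a log2 ratio of 2.59. The locus chr14:63553356-63553415 (minus strand, 1 predicted piRNA) had 5.19 CPM and 25.6 CPM, a log2 ratio of 2.30. The locus in Gm48815, with 4 predicted piRNAs, had 7.15 CPM and 26.1 CPM, and each of its entries was higher in library 2.

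In the other direction the differences were smaller. The locus chr10:19492183-19492912 (minus strand, 1 predicted piRNA, opposite an intron of Gm33104) had 15.6 CPM and 5.68 CPM, a log2 ratio of -1.46. The locus chr5:113325276-113325457 in Gm43353 had 19.4 CPM and 7.09 CPM, also at -1.46, although its 4 entries ran from -2.58 to 0.20. The locus chr11:100534776-100535150 (minus strand, 9 predicted piRNAs) had 27.9 CPM and 11.8 CPM, at -1.24. Of these 6 loci, the one in chr5 lies in a named cluster.

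Entries of 1 locus differed in their ratios between the libraries, low counts included. In the 46 loci with at least 10 predicted piRNAs, the SD of log2 ratios among the entries of a locus had a median of 0.90 and ran from 0.53 to 1.51. In the highest locus, 29 of 78 entries were higher in library 2, and their log2 ratios ran from -3.59 to 2.41.

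The EV preparation was checked by miRNAs known to mark cell types. All 9 listed miRNAs of testis germ cells were present, at a summed 6228 CPM and 4727 CPM, and miR-202 of Sertoli cells had 414 CPM and 373 CPM. All 10 miRNAs of red blood cells, leukocytes, smooth muscle, liver and neurons were also listed, with sums per cell type of 8.37 to 633 CPM in library 1 and 3.50 to 424 CPM in library 2. Their part in the predicted piRNA counts was not tested. Fewer vesicles of a cell type and less RNA per vesicle cannot be told apart in such bulk libraries.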

How the data were processed

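The series measured small RNA of testicular EVs, with 2 libraries and 1 condition. As the study's methods state, BGISEQ-500 reads were cleaned and mapped with Bowtie2 and cmsearch, each tag was assigned to 1 class by a fixed order of databases, and miRDeep2 and Piano predicted miRNAs and piRNAs. Versions, genome build and the treatment of tags with several matches were not given in the sources used here. Raw counts per entry were deposited, with 21970654 and 24829208 listed counts in all. The second deposited column, named TPM, holds RPM, reads per 1000000 of a larger total, with no correction for length, and served as an alternative scaling. No column belonged to another series.

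CPM was each count over the sum of listed counts of its library. Intervals are exact Clopper-Pearson 95% intervals, which cover counting error only. With 2 libraries of 1 group no test was made, and a fold of 2 at a mean count of at least 10 described differences. Dispersion came from edgeR 4.0.16 (R 4.3.3) and size factors from DESeq2 1.42.0, and the fits were tested on simulated data. Loci were placed on GENCODE M21 genes and compared with blastn 2.17.0 at an E-value of 1e-05 (Python 3.11.15, pandas 2.3.3, NumPy 2.4.6, SciPy 1.17.1).

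The named items were the 12 loci and 10 entries of highest mean CPM, the 8 clusters with most ERVL-MaLR CPM, the 3 loci furthest apart each way at a mean count of at least 200, and the genes whose exon (10 highest) or protein-coding intron (6 highest) on the deposited strand held a locus of at least 10 mean CPM. No such intron reached that level. Members and lists were chosen with earlier results of these data known. Bases were read for loci within 1 exon, because only transcripts and promoter windows were used here.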

Additional observations from a re-analysis of the deposited data

Results flagged for a closer look

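An ERVL-MaLR entry outside the 342 loci, novel_pir44038, used only where unlocalized entries were added to the share of predicted piRNA counts, lies on an unlocalized sequence of chromosome 4 and so has no chromosome interval. It had 218 counts in library 1 and 65 counts in library 2, or 9.92 CPM and 2.62 CPM, and was looked at because both counts are above the 3 counts that a count of 0 allows. No control library exists to compare it with.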

How the results depend on the processing

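Besides leaving out each library, 26 alternatives were run on shares and medians. Of these, 14 shifted the value by less than its spread and 12 by more. The spread differed in kind. For shares of counts it was the SD of the 2 libraries. For the share of loci outside genes it was the reach of its interval to either side, about 5.39 percentage points. For the median log2 ratio it was the scatter across loci, 0.78. A median hardly moves that far, so its alternatives, all among the 14, do not show that it was stable. With entries of at least 100 counts in both libraries, the share of listed counts fell to 0.636% from 0.873%, the share of predicted piRNA counts rose to 44.5% from 36.6%, and the share in the 10 highest loci rose to 76.4% from 60.6%. Without the highest locus, ERVL-MaLR held 31.9% of predicted piRNA counts, and the plus strand held 43.5% of ERVL-MaLR counts. Without chromosome 10, an alternative chosen after seeing the data, they held 29.5% of predicted piRNA counts, the 10 highest of the other loci held 51.4% and the plus strand 42.1%. The share in clusters was 33.1% with gaps of 5 kb and 74.9% without chromosome 10, against 40.8%. Of the 129 loci with a mean count of at least 100, 26 were more than 2-fold apart, against 93 of all 342, which became 101 under TMM and 64 without chromosome 10. Outside genes lay 75.4% of loci where protein-coding genes alone were counted and 68.4% by counts. The cause of each shift, beyond the smaller number of entries or loci, was not tested. Leaving out each library in turn gave 0.807% to 0.939% of listed counts, 36.3% to 36.8% of predicted piRNA counts, 59.1% to 63.5% in the 10 highest loci, 37.7% to 44.0% in clusters and 33.4% to 37.3% on the plus strand. The median log2 ratio ran from -0.40 (TMM) to -0.01 (over predicted piRNA counts), against -0.21 with CPM. No paired analysis was possible because the libraries belong to 1 condition. Limits are the 2 libraries, the listing minimum of 10 counts and tags that match several copies.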

Other observations

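The only ERVL-MaLR locus that overlapped a RefSeq promoter window was chr10:12057347-12059490 at Gm40601, chosen after its values were seen, at 1.59 CPM in library 1 and 1.17 CPM in library 2.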
